A study of Homo sapiens with 8 samples.

Results

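Heat shock proteins, J-domain cochaperones and their main regulators were examined in human stem cell-derived cells, labelled as type 2 alveolar, given the DNA-breaking drug bleomycin. The members were taken by gene symbol from the count table: the HSPA, HSPB and HSPH symbols, HSP90AA1, HSP90AB1, HSPD1, HSPE1, every numbered DNAJA, DNAJB and DNAJC symbol, and HSF1, HSF2, BAG3, STIP1 and AHSA1, with HSPA5 left out. This gave 75 genes of the 46427 symbols in the table. Of these, 63 passed the filter on low counts and were among the 18303 genes tested, and 12 did not pass.

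Molecular chaperones bind unfolded or partly folded proteins and let them fold, refold or be passed on for breakdown. HSP70 proteins do this in cycles of ATP binding that are started by J-domain proteins, which bring the clients, and reset by nucleotide exchange factors such as the HSP110 proteins. HSP90 takes over late clients such as kinases and hormone receptors, and mitochondria carry an HSP70 and a chaperonin of their own. When unfolded proteins build up, the transcription factor HSF1 is released from chaperones and binds heat shock elements, which are repeats of the unit NGAAN in alternating orientation, in the promoters of many of these genes.

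The cells came from H7, an established human embryonic stem cell line of wild-type genotype, that had been led through endoderm and lung progenitor stages and then kept at an air-liquid interface for 7 days to become what the labels call differentiated type 2 alveolar cells. There were 4 groups of 2 libraries: untreated control cells, and cells with 24, 240 or 480 µg/ml bleomycin on the apical side for 24 h. All groups share the line and the differentiation. The labels do not say whether the 2 libraries of a group came from separate cultures, so p-values rest on a spread among these libraries that may be purely technical. The doses are those of the sample labels, whose protocol gives a bleomycin stock of 10 µg/ml, below all of them, so the true concentrations are uncertain. The study's stated purpose was the expression of a fibrosis-related phenotype in such cells.

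Libraries held 53431773 to 67715984 counts. The label was only partly borne out by its markers: SFTPC, the surfactant gene that defines type 2 cells, had 0 to 7 counts per library, SFTPA1 0 to 2 and SFTPA2 0 to 7, while SFTPB had 297 to 2137. Of 11 type 2 markers 8 could be tested, and at 480 µg/ml 1 was called higher and 4 lower. Their summed level was 163 to 165 library-scaled counts (CPM) in the control libraries, 112.5 to 114.7 at 240 µg/ml, then 95.0 to 103.7 at 480 µg/ml. The summed level of 8 hepatic markers was 53930 to 55510 CPM in control, 78400 to 85290 at 240 µg/ml, then 66130 to 70510 at 480 µg/ml. At 480 µg/ml 3 of these 8 were called higher. Of 6 type 1 alveolar markers 5 could be tested, and 2 were called lower there. The summed level of the 6 was 348 to 356 CPM in control, 271 to 301 at 24 µg/ml and 102.6 to 106.9 at 480 µg/ml. Of 6 mesenchymal markers 4 were called lower at 480 µg/ml, their sums overlapping with control. At 24 µg/ml the type 2 sums, 162.8 to 178.1 CPM, and the hepatic sums, 40450 to 59050 CPM, overlapped with control. Sums of 6 ciliated markers did not, with 21.9 to 22.7 CPM in control and 27.9 to 30.4 at 24 µg/ml. They were 34.4 to 38.7 CPM at 480 µg/ml, where 1 of 4 tested was called higher. Among 5 tested intestinal markers 1 was called higher and 2 lower at 480 µg/ml, and the list's sums overlapped with control. Of all tested genes 13.9% were called in each direction at 480 µg/ml. The part of these shifts in the chaperone results was not tested. In bulk RNA, fewer cells of a type and less RNA per cell cannot be told apart. The second 480 µg/ml library stood apart, with 2.33% of its counts on mitochondrial protein genes against 0.774% to 1.52% in the other 7 libraries. The 480 µg/ml pair also differed most, with an SD of the log2 ratio between its libraries of 0.637, against 0.502 to 0.520 elsewhere. The fit of all groups shares a spread estimate per gene. Its p-values may thus be too small at 480 µg/ml and too large for the other groups.

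HSP90AA1, HSP90AB1, HSPA8, HSPD1 and HSPA9, chaperones of the cytosol and of mitochondria, fell after 240 and 480 µg/ml bleomycin, whereas no member was called at 24 µg/ml. Of the 20 tested HSP genes, 9 fell and 1 rose at 480 µg/ml, with a median log2 fold change of -0.44. Of the 38 tested J-domain genes 3 fell and 8 rose, with a median of 0.11. Of all tested genes 13.9% were called in each direction at that dose, with a median of 0.01. Transcript levels corrected for gene length and depth (TPM), summed over all 75 members were 6554 ± 326 (SD, n = 2) in control cells, 6455 ± 322 at 24 µg/ml, 4674 ± 87.3 at 240 µg/ml, then 4595 ± 530 at 480 µg/ml. The 2 upper doses thus stood at 71.3% and 70.1% of control, and none of their 4 libraries reached the lowest control or 24 µg/ml library. The sum is weighted to abundant genes. Its largest classes in control were cytosolic HSP90 (2304), cytosolic HSP70 (1176) and mitochondrial HSP (1160). The DNAJB and DNAJC classes stood at 112.1% and 111.2% of control at 480 µg/ml, means of libraries that lay far apart. DNAJB summed to 495.7 and 423.3 TPM there, against 404.7 and 415.0 in control. For DNAJC the sums were 717.4 and 591.7 TPM against 572.7 and 604.6, so replicate 2 lay within the control range. Neither class showed the drop of the total, and a rise cannot be read from these means.

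Set against all genes, the counts of calls were as follows. A call means an adjusted p under 0.05 in edgeR's quasi-likelihood test with Benjamini-Hochberg adjustment over all 18303 genes. At 24 µg/ml 0 members were called, with a background of 0.0% of all genes in each direction. At an unadjusted p under 0.05 there were 2 members and 605 genes, and DESeq2 and limma also called 0 members. At 240 µg/ml 2 members were called higher, against a background of 5.16% of all genes, and 8 lower, against 5.17%. These calls are sensitive to single libraries: they dropped to 0 without either control library or without 240 µg/ml replicate 2, to 0 higher and 1 lower without 240 µg/ml replicate 1, to 1 and 4 or 1 and 5 without a 24 µg/ml library, and became 6 and 18 without either 480 µg/ml library. At 480 µg/ml 9 members, or 14.3%, were called higher, against a background of 13.9%, and 13, or 20.6%, lower, against 13.9%. The share called higher at 480 µg/ml is thus near that of all genes. The counts there were 4 and 5 without control replicate 1, 4 and 7 without control replicate 2, 11 and 21 without 480 µg/ml replicate 1, and 16 and 19 without 480 µg/ml replicate 2. In all 15 alternative analyses 9 of the 22 calls were kept, those of HSP90AA1, HSP90AB1, HSPD1, HSPA9, HSPH1, DNAJB2, DNAJB11, DNAJC30 and HSPA4L. Each of the other calls was lost in edgeR with only the 2 compared groups, at adjusted p from 0.0508 (HSPA1A) to 0.153 (DNAJC19). Limma also did not call DNAJC2 (adjusted p = 0.0544), DNAJC18 (0.153), DNAJC19 (0.134) and DNAJC24 (0.108). Over the 63 members the median log2 fold change was -0.03, -0.08 and -0.01 at the 3 doses, against 0.01 for all genes at each dose. Libraries without overlap are common among all tested genes. Both treated libraries lay above both controls in 18.6%, 33.8% and 31.8% of all genes at the 3 doses. Both lay below in 17.8%, 32.2% and 30.3%. Among members the shares were 9.52%, 28.6% and 28.6% above, and 23.8%, 44.4% and 33.3% below. The share of all genes called in each alternative fit is not given here. Shifts in those counts thus cannot be read as particular to the members.

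**Figure D1:**
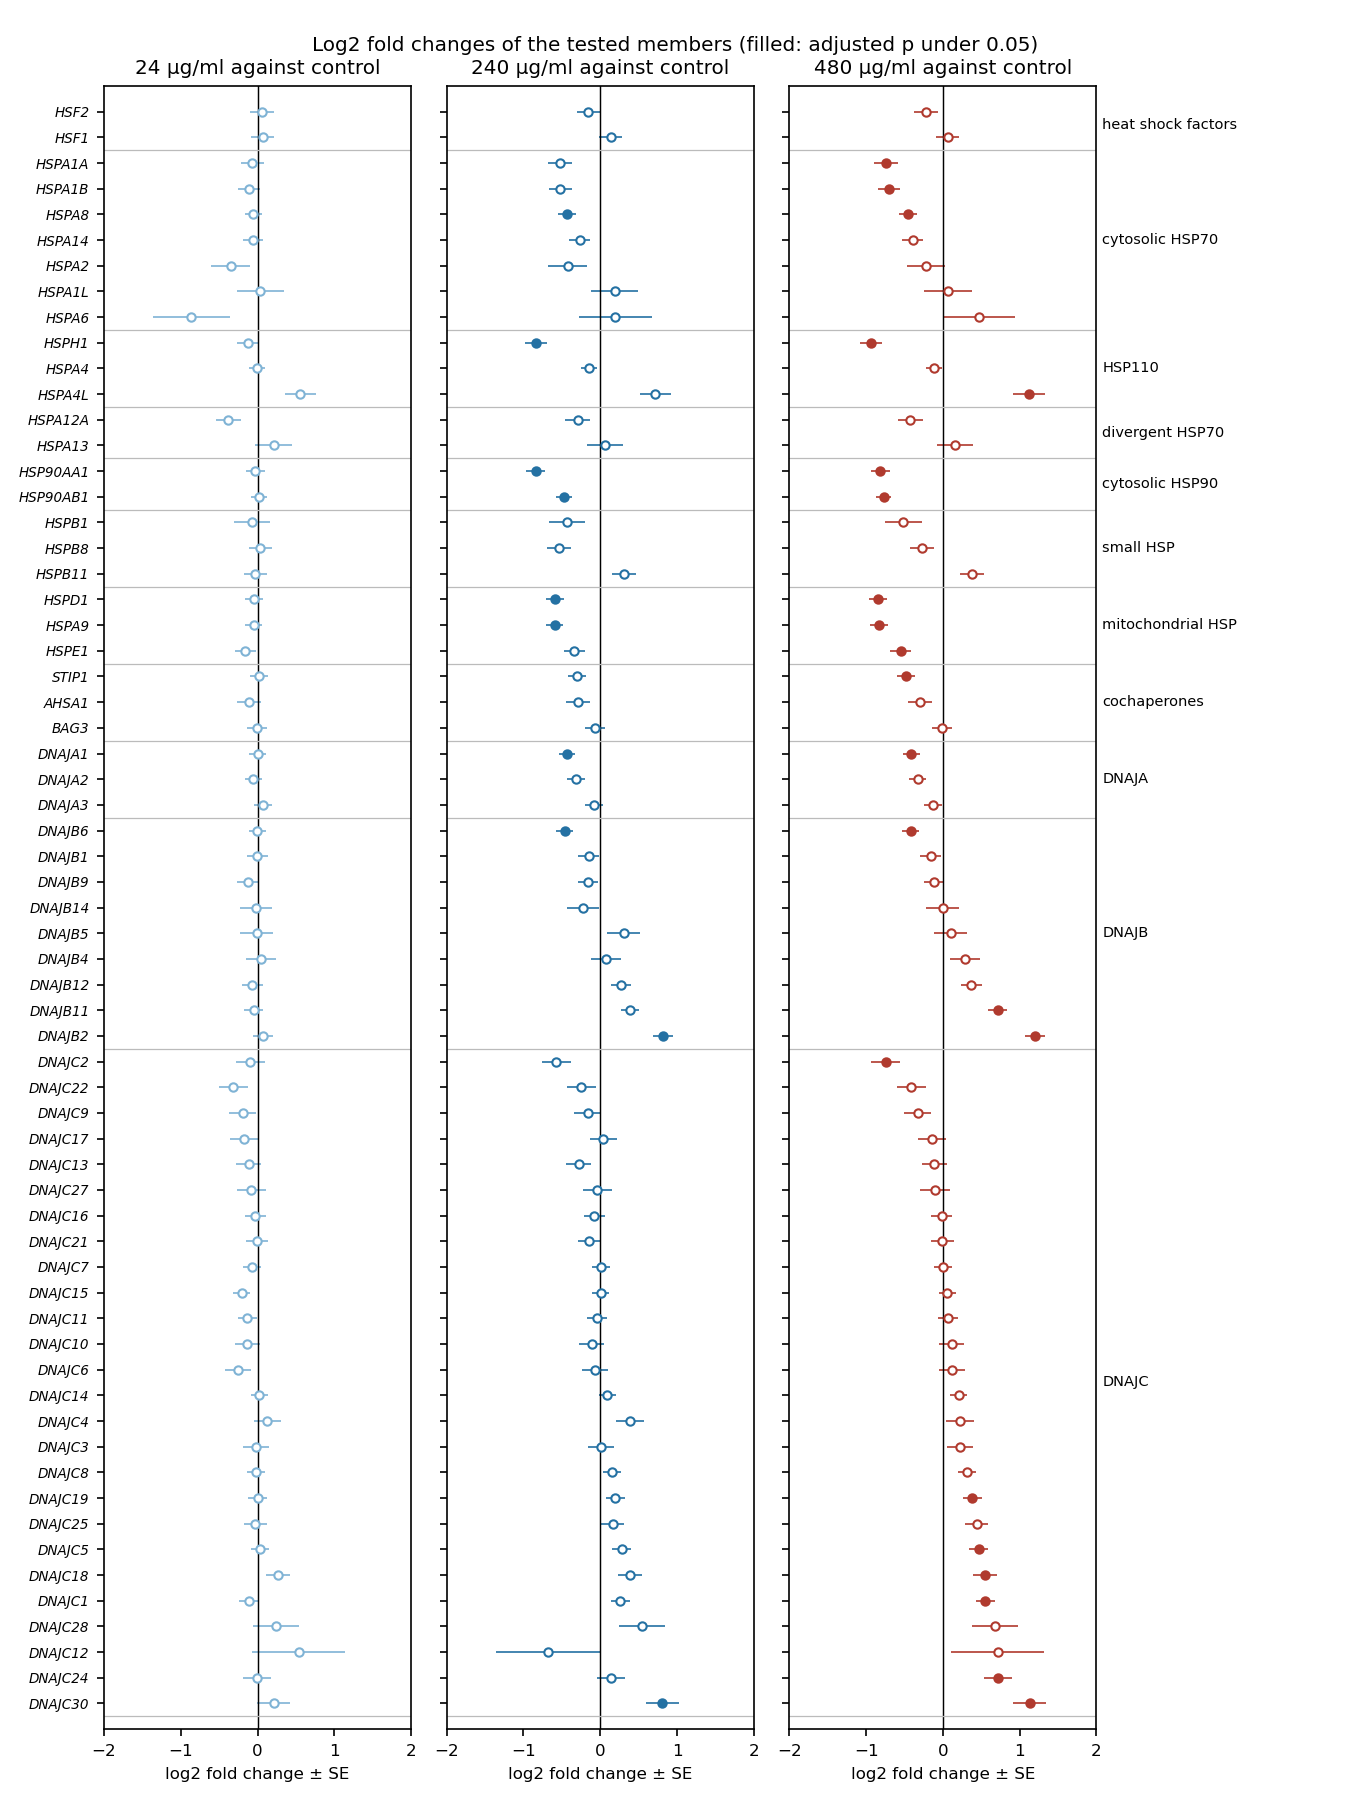
Log2 fold change (x axis, bars are standard errors) of each of the 63 tested members against control at 24, 240 and 480 µg/ml, grouped by role. Filled points have an adjusted p under 0.05: none at 24 µg/ml, 10 at 240 µg/ml, then 22 at 480 µg/ml, with the heat shock protein genes mostly left of 0 and the risers mostly in the DNAJB and DNAJC rows.

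The transcripts of the heat shock factors gave no call in any comparison. HSF1, the main stress-activated factor, measured 52.3 and 43.9 CPM in control, 50.9 and 49.96 at 24 µg/ml, 53.3 and 52.7 at 240 µg/ml, then 43.8 and 56.5 at 480 µg/ml. Treated libraries overlapped with control except that both at 240 µg/ml lay just above it, and the log2 fold change at 480 µg/ml was 0.06 ± 0.15 (SE; adjusted p = 0.793). HSF2, a related factor that forms mixed trimers with HSF1, measured 15.2 and 17.0 CPM in control and 15.4 and 12.3 at 480 µg/ml (-0.22 ± 0.15, adjusted p = 0.325). HSF1 is switched on at the protein level, which these data do not measure.

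Because HSF1 acts through short promoter elements, the letters of these elements were looked for in the 250 bases before the RefSeq transcription starts (GRCh38.p14). A promoter entry was found for 65 of the 75 members, 87 promoters in all. The element of 3 alternating units was searched as GAANNTTCNNGAA or TTCNNGAANNTTC, each being the other's reverse complement, so that both strands were covered. It occurred in 6 of the members' 87 promoters (6.90%) and in 155 of all 35116 promoters (0.441%). The shorter element of 2 units, GAANNTTC or TTCNNGAA, which lies inside every longer one, occurred in 20 of the 87 (23.0%) and in 11.6% of all promoters. The 6 genes with the longer element are shown because 5 of them were called lower at 480 µg/ml. In the following 30-base windows, written on the gene's strand, capitals mark the bases of the matches.
HSP90AA1, chr14:102087111-102087140, minus strand: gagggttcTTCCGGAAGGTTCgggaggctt
HSP90AB1, chr6:44247770-44247799, plus strand: ggagcaggTTCTGGAAGATTCatgggctcc
HSP90AB1, chr6:44247823-44247852, plus strand: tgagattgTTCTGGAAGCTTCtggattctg
HSPA8, chr11:123062345-123062374, minus strand: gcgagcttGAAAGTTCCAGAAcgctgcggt
HSPA8, chr11:123062170-123062199, minus strand: cgggccccTTCTGGAAGGTTCtaagatagg
HSPD1, chr2:197500061-197500090, minus strand: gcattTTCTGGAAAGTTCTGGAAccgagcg
DNAJB6, chr7:157336865-157336894, plus strand: agagccgaGAACCTTCGCGAAggtggggcg
HSPA6, chr1:161524458-161524487, plus strand: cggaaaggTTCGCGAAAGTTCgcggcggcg

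All 13 members called lower at 480 µg/ml had a promoter entry. The longer element was found in 5 of these 13 and the shorter in 8, the further 3 being HSPA1A, HSPA1B and DNAJA1. The other 5, HSPH1, HSPA9, HSPE1, STIP1 and DNAJC2, held neither in their 250-base windows. HSPE1 lies head to head with HSPD1, whose printed element fell outside the HSPE1 window. Elements farther out were not searched, so their absence cannot be inferred. Counted by gene, the longer element was found in 0.434% and the shorter in 12.1% of tested genes with an entry. For members with an entry these shares were 9.23% and 30.8%. The members were chosen as chaperone genes, many of which carry such elements, so their higher share is no finding of these data. Of the 13 lower calls 9 were HSP genes, and of the 9 higher calls 8 were J-domain genes. Element and gene class thus cannot be told apart here. Any link between these elements and the fall was not tested. Of the 7 members called higher that had an entry, 0 held the longer element and 1, HSPA4L, the shorter. Of 37 tested members with an entry and no call, 1 held the longer (HSPA6) and 7 the shorter. A match is a description of the letters and not of a bound site. Longer stretches are given for 3 genes: HSP90AB1, whose promoter holds 2 long elements, HSPA1A, with 1 short element, and DNAJB2, the member with the smallest p among those that rose, whose window holds none of these letters. Bases that the GENCODE annotation gives to exons were left off their ends, and capitals again mark matches.
HSP90AB1, chr6:44247693-44247865, plus strand: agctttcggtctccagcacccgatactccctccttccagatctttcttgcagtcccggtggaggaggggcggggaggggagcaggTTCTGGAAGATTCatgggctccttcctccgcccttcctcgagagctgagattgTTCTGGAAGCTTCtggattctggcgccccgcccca
HSPA1A, chr6:31815293-31815463, plus strand: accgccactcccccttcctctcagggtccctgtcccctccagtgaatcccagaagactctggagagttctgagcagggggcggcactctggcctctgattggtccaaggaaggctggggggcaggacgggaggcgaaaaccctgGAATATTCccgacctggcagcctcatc
DNAJB2, chr2:219279116-219279266, plus strand: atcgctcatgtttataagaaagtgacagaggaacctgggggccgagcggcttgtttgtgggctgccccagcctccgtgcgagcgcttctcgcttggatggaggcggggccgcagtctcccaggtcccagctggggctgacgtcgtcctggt

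The cytosolic HSP90 pair was the most abundant class per length and fell at both upper doses. HSP90AB1, the constitutive form, measured 1752 and 1775 CPM in control, 1746 and 1822 at 24 µg/ml, 1264 and 1274 at 240 µg/ml, then 1006 and 1059 at 480 µg/ml. The control and 24 µg/ml libraries overlapped, and the 240 and 480 µg/ml libraries lay below them without overlap. The log2 fold change was 0.02 ± 0.10 at 24 µg/ml, -0.47 ± 0.10 at 240 µg/ml (adjusted p = 0.0231) and -0.77 ± 0.10 at 480 µg/ml (adjusted p = 0.00111), a level of 0.585 of control. HSP90AA1, the stress-inducible form, measured 970.8 and 1037 CPM in control, 951 and 1019 at 24 µg/ml, 575 and 545 at 240 µg/ml, then 614 and 527 at 480 µg/ml. Its 4 libraries at the upper doses lay far below the other 4 and overlapped among themselves, and the log2 fold change was -0.84 ± 0.12 at 240 µg/ml (adjusted p = 0.00574) and -0.81 ± 0.12 at 480 µg/ml (adjusted p = 0.00174). Neither call at 480 µg/ml was lost in any alternative. The elements printed above begin 88 bases before the HSP90AA1 start and 165 and 112 bases before that of HSP90AB1. Summed TPM of the pair were 2304 ± 154 in control, 2320 ± 143 at 24 µg/ml, 1433 ± 8.15 at 240 µg/ml, then 1290 ± 179 at 480 µg/ml (SD, n = 2).

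**Figure D2:**
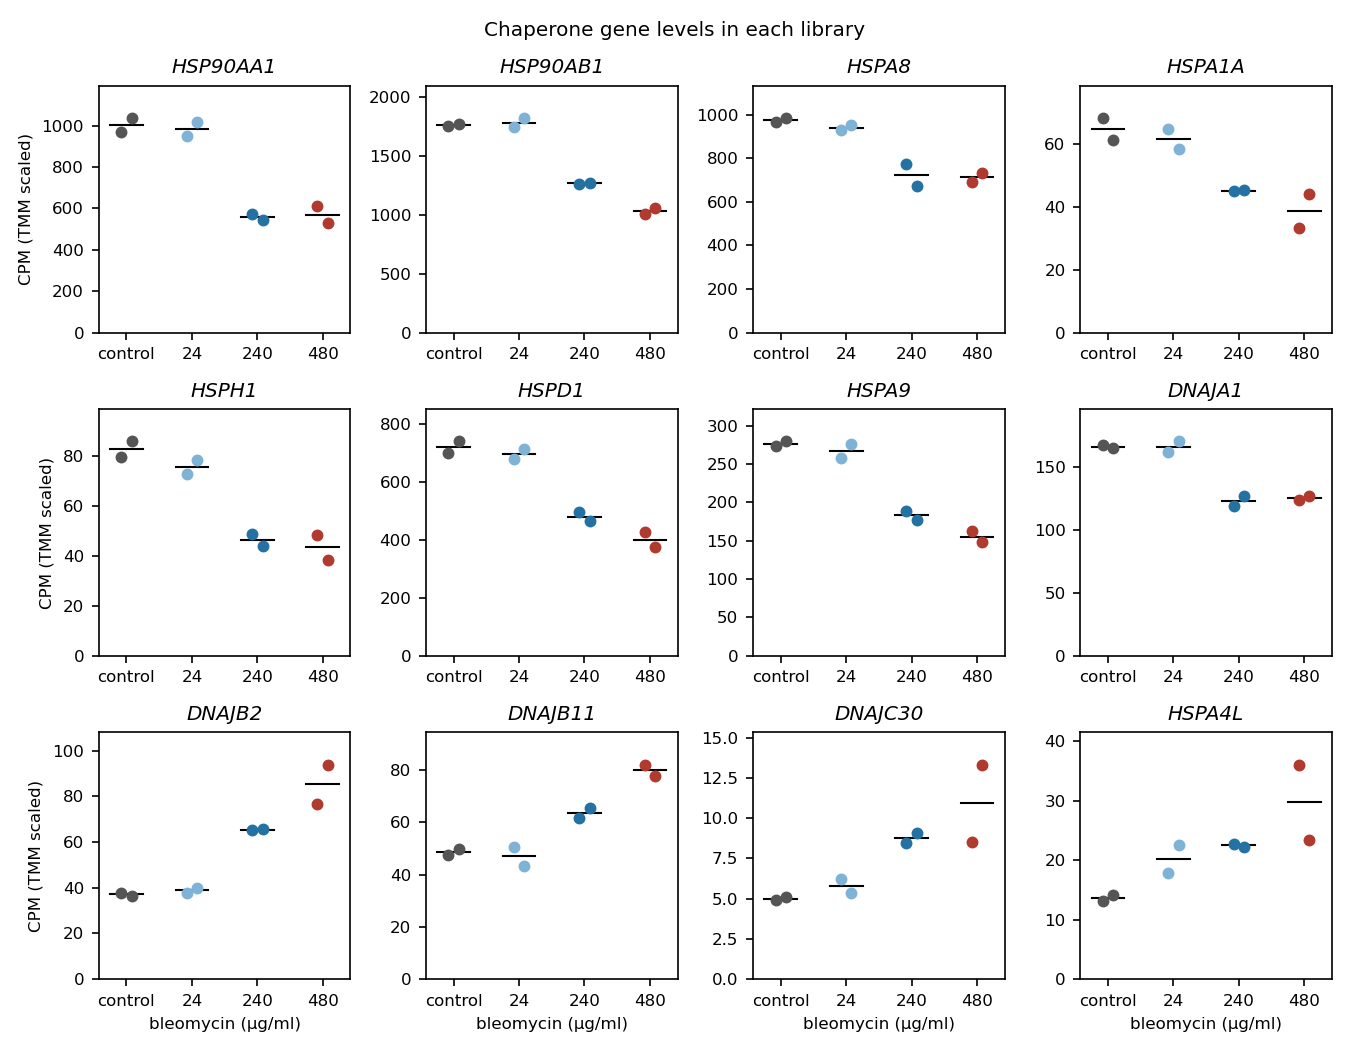
Library-scaled counts (CPM, y axis, from 0) of 12 chaperone genes in the 8 libraries by bleomycin dose; points are libraries and the bar is the mean of 2. The HSP90, HSP70, mitochondrial and DNAJA1 panels step down between 24 and 240 µg/ml, DNAJB2, DNAJB11 and DNAJC30 step up, and HSPA4L is already higher in both 24 µg/ml libraries (17.8 and 22.5) than in control (13.2 and 14.2).

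Among the 7 tested cytosolic HSP70 genes, 3 fell at 480 µg/ml and 0 rose. At that dose 13.9% of all tested genes were called in each direction, and 7 genes are few to set against it. HSPA8, the constitutive HSC70 that clears clathrin coats and folds new proteins, measured 969 and 984 CPM in control, 928 and 953 at 24 µg/ml, 775 and 675 at 240 µg/ml, then 691 and 734 at 480 µg/ml. Both upper doses lay below every other library, with log2 fold changes of -0.43 ± 0.11 (adjusted p = 0.0452) and -0.46 ± 0.11 (adjusted p = 0.0176). The call at 480 µg/ml did not hold without control replicate 1 (adjusted p = 0.0936) or control replicate 2 (0.112).

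The classical heat-inducible genes HSPA1A and HSPA1B did not rise at any dose. HSPA1A measured 68.4 and 61.4 CPM in control, 64.98 and 58.7 at 24 µg/ml, 45.05 and 45.4 at 240 µg/ml, then 33.3 and 44.2 at 480 µg/ml. HSPA1B measured 117 and 106 CPM in control and 59.7 and 77.4 at 480 µg/ml. Both genes lay below control without overlap at 240 µg/ml, where they were not called (adjusted p = 0.0622 and 0.0549), and fell at 480 µg/ml, by 0.74 and 0.70 on the log2 scale (SE 0.15 each, adjusted p = 0.00775 and 0.00793). The 2 genes are near-identical copies and how shared reads were assigned is not given in the sources used here, so their split is uncertain. At 240 µg/ml DESeq2 (adjusted p = 0.0163 and 0.0114) and limma (0.0159 and 0.0126) did call both lower, and of 16 alternatives 7 called HSPA1A and 8 HSPA1B. At 480 µg/ml both calls were lost without control replicate 1 (adjusted p = 0.0652 and 0.0680).

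HSPA6, the strictly inducible HSP70, stayed near the floor of detection. It had 9 to 31 counts per library, or 0.396 and 0.259 CPM in control and 0.403 and 0.502 at 480 µg/ml, where a count of 0 would allow 3 counts (0.0439 to 0.0576 CPM). It was not called (0.47 ± 0.47, adjusted p = 0.484). Its promoter carries the long element shown above. HSPA7, its near-identical copy, had 1 to 10 counts and was not tested. HSPA14, a ribosome-associated HSP70, gave -0.40 ± 0.13 at 480 µg/ml (adjusted p = 0.0563), and HSPA2 and HSPA1L, known from germ cells, were at or below 3.40 and 0.751 CPM in every library.

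The HSP110 family, which recharges HSP70 with ATP, split in direction. HSPH1 (HSP105), a heat-inducible member, measured 79.4 and 85.7 CPM in control, 72.5 and 78.4 at 24 µg/ml, 48.6 and 43.7 at 240 µg/ml, then 48.3 and 38.3 at 480 µg/ml. All 4 libraries of the upper doses lay below the other 4, and it fell by 0.84 (SE 0.14, adjusted p = 0.0109) and 0.93 (SE 0.14, adjusted p = 0.00215) on the log2 scale, to 0.525 of control at 480 µg/ml. HSPA4L measured 13.2 and 14.2 CPM in control, 17.8 and 22.5 at 24 µg/ml, 22.7 and 22.2 at 240 µg/ml, then 36.0 and 23.3 at 480 µg/ml. Every treated library lay above both controls, and the 2 libraries at 480 µg/ml differed widely. It rose at 480 µg/ml by a log2 fold change of 1.12 ± 0.21 (adjusted p = 0.00472) and was not called at 240 µg/ml (0.72 ± 0.21, adjusted p = 0.0578) or 24 µg/ml (0.56 ± 0.21, adjusted p = 1.00). HSPA4, the third and most abundant of the family per length, gave -0.12 ± 0.10 at 480 µg/ml (adjusted p = 0.421).

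All 3 mitochondrial chaperones fell at 480 µg/ml, a dose at which 13.9% of all tested genes were called lower. A class of 3 genes is too small to be read against that share. HSPD1 (HSP60), the chaperonin of the matrix, measured 700.4 and 739 CPM in control, 677 and 714 at 24 µg/ml, 495 and 464 at 240 µg/ml, then 426 and 374 at 480 µg/ml. Its levels formed 3 steps without overlap: control with 24 µg/ml, then 240 µg/ml, then 480 µg/ml. The log2 fold change against control was -0.59 ± 0.12 at 240 µg/ml (adjusted p = 0.0183) and -0.85 ± 0.12 at 480 µg/ml (adjusted p = 0.00131), and the step from 240 to 480 µg/ml was not called (-0.26 ± 0.12, adjusted p = 0.445).

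HSPA9 (mortalin), the matrix HSP70 that also pulls proteins through the import channel, showed the same 3 steps. It measured 273 and 279 CPM in control, 257 and 275 at 24 µg/ml, 189 and 177 at 240 µg/ml, then 163 and 148 at 480 µg/ml. It fell by 0.59 (SE 0.11, adjusted p = 0.0165) and 0.83 (SE 0.11, adjusted p = 0.00134) on the log2 scale. HSPE1 (HSP10), the lid of the HSP60 cage, measured 68.4 and 65.9 CPM in control, 57.3 and 62.8 at 24 µg/ml, 50.7 and 55.8 at 240 µg/ml, then 41.3 and 50.6 at 480 µg/ml. It was not called at 240 µg/ml (adjusted p = 0.155), where both libraries lay below both controls, and fell at 480 µg/ml (-0.55 ± 0.14, adjusted p = 0.0177), a call lost without either control library (adjusted p = 0.107 and 0.0843). HSPD1 and HSPE1 lie head to head and their exons overlap, as do those of HSPE1 and the readthrough gene HSPE1-MOB4. Summed TPM of the 3 genes were 1160 ± 76.4 in control and 658 ± 101 at 480 µg/ml (SD, n = 2), or 56.7% of control.

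**Figure D3:**
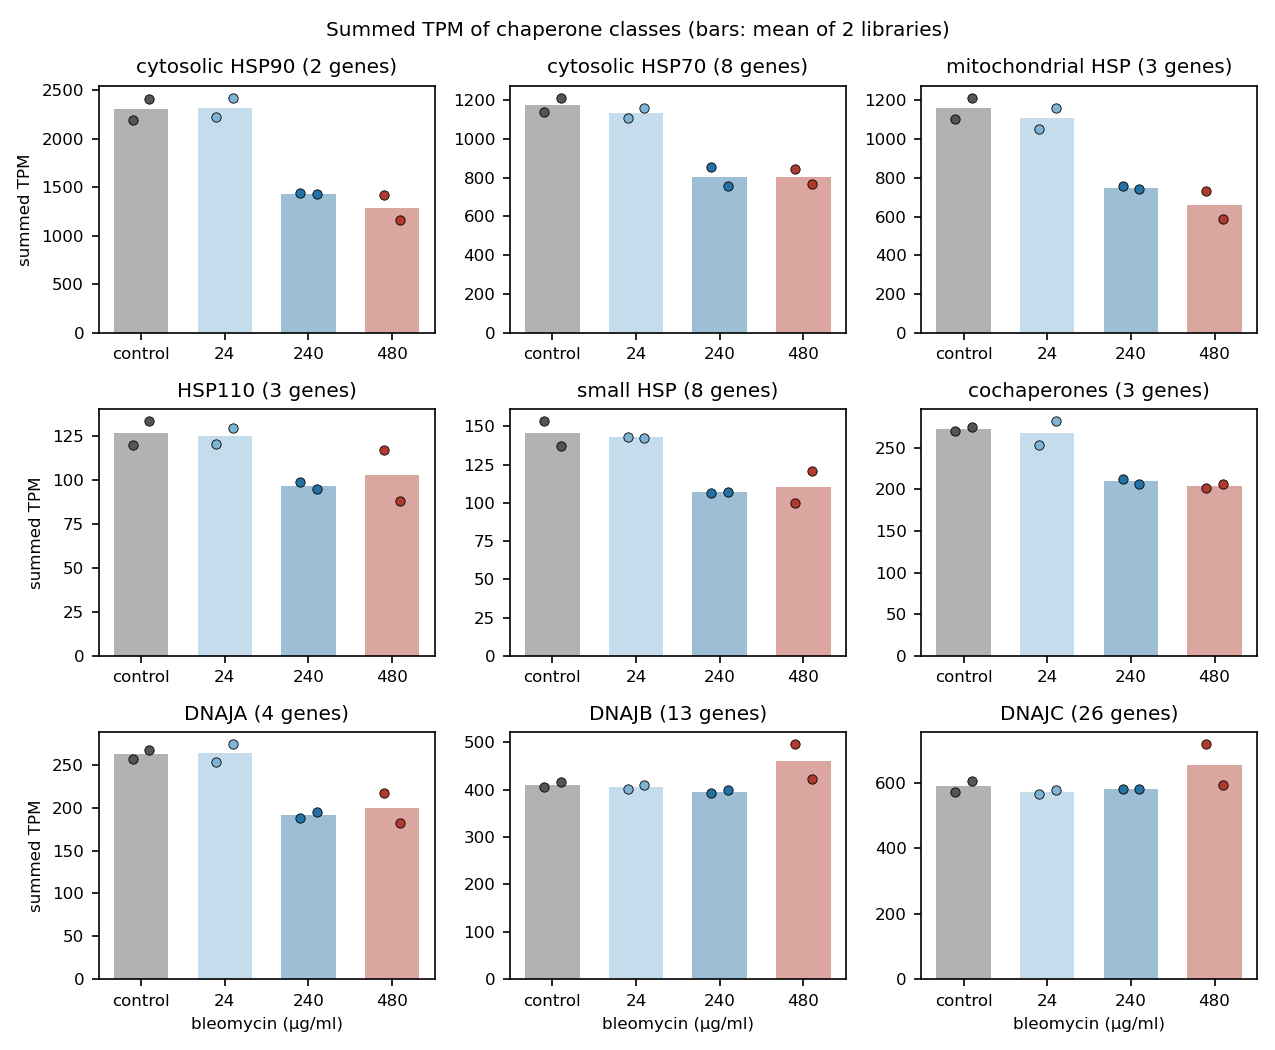
Summed TPM (y axis, from 0) of 9 classes of member genes by bleomycin dose; bars are means of 2 libraries and points are the libraries. The HSP90, HSP70 and mitochondrial classes stood at 56.0%, 68.6% and 56.7% of the control mean at 480 µg/ml, while the DNAJB and DNAJC classes stood at 112.1% and 111.2% with widely spread 480 µg/ml libraries.

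The small heat shock proteins, which hold unfolded proteins without using ATP, were sparsely expressed. Of 8 genes 3 could be tested, and edgeR called none of them in the fit of all groups. HSPB1 (HSP27), the main inducible one, measured 35.7 and 28.6 CPM in control, 23.8 and 23.9 at 240 µg/ml, then 16.3 and 28.8 at 480 µg/ml. The 2 libraries at 480 µg/ml stood apart from each other, and one of them overlapped control (-0.51 ± 0.24, adjusted p = 0.137). It was called lower by limma (adjusted p = 0.0379), when low counts were kept (0.0304), and without 480 µg/ml replicate 2 (0.00118). HSPB8, the partner of BAG3 in selective autophagy, gave -0.53 ± 0.15 at 240 µg/ml (adjusted p = 0.0584) and -0.27 ± 0.15 at 480 µg/ml (adjusted p = 0.218). It was called lower at 240 µg/ml by DESeq2 (adjusted p = 0.0220) and limma (0.0196), in 7 of 16 alternatives in all. HSPB11, which carries the family's name but works in intraflagellar transport, gave 0.38 ± 0.16 at 480 µg/ml (adjusted p = 0.101). HSPB2, HSPB3, HSPB6, HSPB7 and HSPB9 had 0 to 7 counts per library.

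Of the divergent HSP70 genes neither tested member was called. HSPA12A measured 12.2 and 14.6 CPM in control and 10.6 and 9.29 at 480 µg/ml (-0.43 ± 0.16, adjusted p = 0.0821). HSPA13, a microsomal form, measured 62.7 and 70.8 CPM in control and 96.4 and 52.6 at 480 µg/ml, the 2 treated libraries lying on either side of control. Its estimate changed sign with the library left out, from 0.16 ± 0.24 (adjusted p = 0.652) to -0.35 (adjusted p = 0.0311) without 480 µg/ml replicate 1 and 0.53 (adjusted p = 0.00580) without replicate 2.

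Of the 3 cochaperones and regulators, STIP1 was called, at 480 µg/ml, where 13.9% of all tested genes were called lower. STIP1 (HOP), which hands clients from HSP70 to HSP90, measured 130 and 126 CPM in control, 125 and 134 at 24 µg/ml, 103 and 104 at 240 µg/ml, then 86.0 and 97.8 at 480 µg/ml. It fell at 480 µg/ml (-0.48 ± 0.12, adjusted p = 0.0165), with no overlap, and the call was lost without either control library (adjusted p = 0.114 and 0.0884). AHSA1, the activator of the HSP90 ATPase, measured 65.3 and 61.2 CPM in control and 43.6 and 59.5 at 480 µg/ml (-0.30 ± 0.16, adjusted p = 0.195). Its exons overlap those of VIPAS39 on the opposite strand, which was called higher (0.77, adjusted p = 0.00159). BAG3, an HSP70 exchange factor that HSF1 induces, measured 30.7 and 28.4 CPM in control, 30.4 and 28.5 at 24 µg/ml, 29.2 and 27.2 at 240 µg/ml, then 26.7 and 32.0 at 480 µg/ml. Its groups overlapped at every dose, and the log2 fold change at 480 µg/ml was -0.01 ± 0.13 (adjusted p = 0.979).

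Among J-domain genes of class A, DNAJA1, a main partner of cytosolic HSP70, fell. It measured 168 and 165 CPM in control, 162 and 171 at 24 µg/ml, 119 and 127 at 240 µg/ml, then 124 and 127 at 480 µg/ml. The upper doses overlapped with each other and lay below the rest, with log2 fold changes of -0.43 ± 0.11 (adjusted p = 0.0384) and -0.41 ± 0.11 (adjusted p = 0.0227). Its call at 480 µg/ml was lost without either control library (adjusted p = 0.139 and 0.124). DNAJA2, which has a like role, gave -0.33 ± 0.11 at 480 µg/ml (adjusted p = 0.0566), and DNAJA3, the mitochondrial member, -0.13 ± 0.12 (adjusted p = 0.435).

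Class B held both directions. DNAJB2, a J-protein with ubiquitin-binding motifs that passes clients to the proteasome, measured 37.6 and 36.4 CPM in control, 37.5 and 40.0 at 24 µg/ml, 65.1 and 65.6 at 240 µg/ml, then 76.8 and 93.8 at 480 µg/ml. The control and 24 µg/ml libraries overlapped, and the 2 upper doses lay above them in separate steps. It had the smallest p of all members at 480 µg/ml, where it rose 2.31-fold (log2 fold change 1.20 ± 0.13, adjusted p = 0.000508), and it rose 1.76-fold at 240 µg/ml (0.82 ± 0.13, adjusted p = 0.00870). Per length its level went from 39.4 ± 0.827 TPM in control to 86.8 ± 0.870 at 480 µg/ml (SD, n = 2).

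DNAJB11 (ERdj3), the soluble J-protein of the endoplasmic reticulum, measured 47.5 and 49.8 CPM in control, 50.5 and 43.5 at 24 µg/ml, 61.8 and 65.6 at 240 µg/ml, then 82.1 and 77.8 at 480 µg/ml. The upper doses again formed 2 steps above the other libraries, and it was called at 480 µg/ml (0.72 ± 0.12, adjusted p = 0.00342) but not at 240 µg/ml (0.39 ± 0.12, adjusted p = 0.0793). Its exons overlap those of TBCCD1 on the opposite strand, which gave 0.38 at 480 µg/ml (adjusted p = 0.0852). Of the other J-proteins of that compartment, DNAJC1, a membrane protein near the ribosome, rose at 480 µg/ml (0.55 ± 0.12, adjusted p = 0.0109). DNAJB9 (-0.11 ± 0.13, adjusted p = 0.555), DNAJC3 (0.23 ± 0.17, adjusted p = 0.349) and DNAJC10 (0.11 ± 0.16, adjusted p = 0.637) were not called there.

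DNAJB6, which keeps polyglutamine proteins from aggregating, measured 83.6 and 78.3 CPM in control, 79.1 and 82.5 at 24 µg/ml, 57.5 and 60.0 at 240 µg/ml, then 60.6 and 60.5 at 480 µg/ml. It fell at both upper doses without overlap, by 0.46 (SE 0.11, adjusted p = 0.0336) and 0.42 (SE 0.11, adjusted p = 0.0224) on the log2 scale. The call at 480 µg/ml was lost without either control library (adjusted p = 0.163 and 0.0958) and narrowly without either 240 µg/ml library (0.0507 and 0.0511). DNAJB1 (HSP40), the classical heat-inducible J-protein, measured 115 and 104 CPM in control, 110 and 108 at 24 µg/ml, 97.4 and 99.4 at 240 µg/ml, then 86.9 and 108 at 480 µg/ml. Control and 480 µg/ml overlapped and it was not called (-0.16 ± 0.13, adjusted p = 0.402). DNAJB3, DNAJB7, DNAJB8 and DNAJB13 had 0 to 13 counts.

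Class C, whose members share little beyond the J-domain, gave 6 of the 9 calls of higher genes at 480 µg/ml and 1 of the 13 lower ones. This class holds 26 of the 63 tested members. Of all tested genes 13.9% were called in each direction at that dose. DNAJC30, which serves complex I of the mitochondrial respiratory chain, measured 4.91 and 5.08 CPM in control, 6.21 and 5.35 at 24 µg/ml, 8.43 and 9.09 at 240 µg/ml, then 8.52 and 13.3 at 480 µg/ml. All treated libraries lay above control, and it rose 1.75-fold at 240 µg/ml (0.81 ± 0.21, adjusted p = 0.0447) and 2.19-fold at 480 µg/ml (1.13 ± 0.21, adjusted p = 0.00519). BUD23, whose exons overlap it on the opposite strand, was also called higher at 480 µg/ml (0.60, adjusted p = 0.0339). Whether strand was used in counting is not given in the sources used here, and without it the reads of such pairs cannot be told apart.

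DNAJC24, which acts in the making of diphthamide on elongation factor 2, measured 5.59 and 5.20 CPM in control, 5.40 and 6.53 at 240 µg/ml, then 9.94 and 7.83 at 480 µg/ml. It stood apart only at 480 µg/ml, where it rose (0.72 ± 0.18, adjusted p = 0.0189). DNAJC5, the cysteine string protein of secretory vesicles, measured 87.4 and 83.2 CPM in control, 103 and 104 at 240 µg/ml, then 108 and 128 at 480 µg/ml, and rose at 480 µg/ml (0.47 ± 0.12, adjusted p = 0.0218). DNAJC1, DNAJC24 and DNAJC5 each lost the call without control replicate 1 (adjusted p = 0.0708, 0.0816 and 0.105) or without control replicate 2 (0.100, 0.119 and 0.155).

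The remaining 3 calls of class C fall outside the rule for named genes and, like HSPA4, HSPA14, HSPA2, HSPA1L, HSPA7, HSPB8, DNAJA3, DNAJB9, DNAJC3 and DNAJC10 above, were named after their values were seen. DNAJC2, a ribosome-bound partner of HSPA14, fell at 480 µg/ml, from 17.0 and 17.2 CPM in control to 12.3 and 8.14 (-0.74 ± 0.19, adjusted p = 0.0182). Its call was lost without control replicate 1 (0.0815) or replicate 2 (0.0874). DNAJC18 rose from 6.02 and 6.15 CPM to 9.35 and 8.48 (0.55 ± 0.16, adjusted p = 0.0309). DNAJC19, a subunit of the mitochondrial import motor, rose from 11.8 and 12.2 to 15.6 and 15.7 CPM (0.38 ± 0.12, adjusted p = 0.0473). These 2 calls are weak: that of DNAJC18 was kept in 8 and that of DNAJC19 in 4 of 15 alternative analyses, and among leave-one-out fits DNAJC18 lost it without either control library (0.150 and 0.135), either 24 µg/ml library (0.0534 and 0.0546) or 480 µg/ml replicate 1 (0.0510), and DNAJC19 without any control, 24 or 240 µg/ml library (0.0774 to 0.229).

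**Figure D4:**
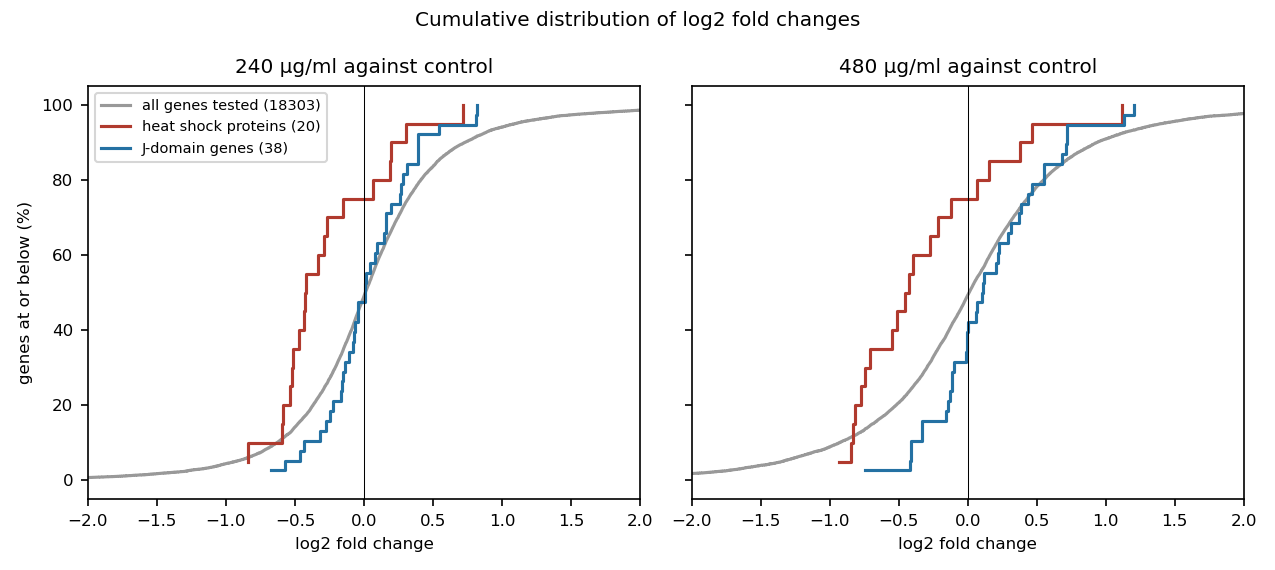
Cumulative share of genes (y axis, percent) at or below each log2 fold change (x axis) at 240 and 480 µg/ml against control for all 18303 tested genes, the 20 tested HSP genes and the 38 tested J-domain genes. The HSP curve lies left of that of all genes near 0, with medians of -0.43 and -0.44, while the J-domain curve has medians of 0.01 and 0.11.

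Between neighbouring doses, the step from 24 to 240 µg/ml carried the calls. In that comparison 1 member was called higher, DNAJB2, against a background of 3.34% of all genes, and 7 lower, against 3.49%: HSP90AA1, HSP90AB1, HSPA9, HSPD1, HSPH1, DNAJA1 and DNAJB6. These calls were lost without any 1 of the 24 or 240 µg/ml libraries, were 1 higher and 1 lower without either control library, and were 7 and 15 without either 480 µg/ml library. From 240 to 480 µg/ml edgeR called 0 members in either direction, against a background of 0.0273% higher and 0.229% lower, DESeq2 and limma also called 0, and 6 members had an unadjusted p under 0.05. In that last step HSP90AB1 had a log2 fold change of -0.30 ± 0.10 (adjusted p = 0.306), DNAJB2 0.39 ± 0.13 (0.297), DNAJB11 0.33 ± 0.12 (0.354) and DNAJC24 0.57 ± 0.18 (0.264). Each was without overlap between the doses. They were named for the smallest p of the members there, so their separation adds no support. Over all tested genes, both 480 µg/ml libraries lay above both 240 µg/ml libraries in 17.3% and below in 19.0%. Among members the shares were 19.0% and 12.7%. Without 480 µg/ml replicate 1 that step gave 3 members called higher and 1 lower, and without replicate 2 it gave 8 and 3.

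At 24 µg/ml the 4 members with the smallest p were all uncalled at an adjusted p of 1.00. These were HSPA4L, HSPA12A (-0.38 ± 0.16), HSPA6 (-0.86 ± 0.50, on fewer than 32 counts per library) and DNAJC15, an inner mitochondrial membrane J-protein (-0.21 ± 0.11).

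Folding genes outside the symbol rule were read from 7 lists of 60 genes, all of which could be tested. At 240 µg/ml 1 was called higher (SIL1) and 2 lower (CCT5 and CHORDC1), and at 480 µg/ml 3 higher and 7 lower, with a median log2 fold change of -0.02. Over all genes the shares called were 5.16% and 5.17% at 240 µg/ml and 13.9% in each direction at 480 µg/ml, so these counts lie below the background, and single lists hold too few genes to be read against it. Of 9 genes of TRiC, the chaperonin of the cytosol, 2 fell at 480 µg/ml, CCT5 (-0.75 ± 0.12, adjusted p = 0.00228) and CCT2 (-0.40 ± 0.12, adjusted p = 0.0323). Of 12 HSP90 cochaperones 2 fell, CHORDC1 (-1.11 ± 0.18, adjusted p = 0.00241), to 0.464 of control, and the immunophilin FKBP4 (-0.54 ± 0.15, adjusted p = 0.0266). Of 9 mitochondrial folding and protease genes 2 fell, TRAP1, the mitochondrial HSP90 (-0.91 ± 0.13, adjusted p = 0.00144), and GRPEL2, an exchange factor of HSPA9 (-0.57 ± 0.13, adjusted p = 0.0106).

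Of 10 HSP70 exchange and binding factors 2 rose at 480 µg/ml and 0 fell. SIL1, an exchange factor of the endoplasmic reticulum, measured 54.6 and 50.9 CPM in control, 56.7 and 57.9 at 24 µg/ml, 115 and 100.2 at 240 µg/ml, then 113 and 146 at 480 µg/ml. Every upper-dose library lay far above the rest, and it rose 2.45-fold at 480 µg/ml (1.29 ± 0.15, adjusted p = 0.000638). HYOU1, the large HSP70-like exchange factor of the same compartment, also rose (0.59 ± 0.13, adjusted p = 0.0107). Of 6 prefoldin genes, whose products carry new actin and tubulin to TRiC, 1 rose, PFDN1 (0.65 ± 0.15, adjusted p = 0.0120), and PFDN5 was not called (0.32 ± 0.20, adjusted p = 0.266). Of 11 other heat shock response genes SERPINH1, the collagen chaperone HSP47, fell (-0.82 ± 0.18, adjusted p = 0.0103), and IER5, an HSF1 coactivator, was not called (0.36 ± 0.13, adjusted p = 0.0649). None of 3 J-domain genes under other symbols was called, among them HSCB (0.34 ± 0.15, adjusted p = 0.120) and GAK (0.13 ± 0.15, adjusted p = 0.53). Of the calls in these lists, CCT2 and FKBP4 lost theirs without either control library (adjusted p = 0.147 and 0.165 for CCT2, 0.135 and 0.104 for FKBP4) and without most of the 24 and 240 µg/ml libraries (0.0505 to 0.0617). GRPEL2 (0.0627 and 0.0815) and HYOU1 (0.0852 and 0.0705) lost theirs without either control library, PFDN1 without control replicate 2 (0.116) and SERPINH1 without control replicate 1 (0.0721).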

How the data were processed

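Poly(A) RNA was sequenced from 8 libraries, made with a stranded kit per the labels' protocols. Trimmomatic, Bowtie2, HISAT2 and StringTie and the build GRCh38 are named in the submitters' processing notes, with no versions. The deposited table holds whole read counts per gene symbol from the authors, used for the tests, and TPM from the authors, used for levels per length. The assignment of shared reads and of strand is not given in the sources used here.

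Counts were tested in edgeR 4.0.16 (R 4.3.3) by the quasi-likelihood method on the 4 groups together, with TMM scaling, filterByExpr (at least 10 counts per library at the median depth, 15 in all) and Benjamini-Hochberg adjustment over 18303 genes, called under 0.05. CPM use the scaled library sizes, and an SE is the absolute log2 fold change over the root of F. The common dispersion was 0.0226, with 4 residual degrees of freedom. On simulated data for 480 µg/ml against control (17951 genes, 200 changed), 5.97% of 1.5-fold, 67.2% of 2-fold and 87.9% of 4-fold changes were called, with 6 false calls. In the data 13.9% of all genes were called in each direction, far more than were changed in the simulation. The adjustment was thus stricter there, and these shares do not carry over to the data. Exon overlaps come from GENCODE and concern 36 members, and summed pseudogene counts were at most 1.47% of a parent gene's.

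Alternatives were DESeq2 1.42.0, limma 3.58.1 on log2(TPM + 1), RLE factors, no filter or a stricter one (50 counts in 2 libraries), the compared groups alone, a replicate block, and each library left out. Leaving out both 480 µg/ml libraries was added after seeing the data. In fits that leave 1 library in a group, that library is assumed to vary like the other groups. Members and lists were chosen with earlier results of these data known. Genes are named by a rule: a set of 16 core genes, the members with the smallest p in each comparison and role class, those with the highest and lowest fold changes among called members, and the 2 smallest p of each list. Other genes named, such as further members of a role class, were chosen after their values were seen. Doses are as labelled. A further gene was left out of the lists and is not reported here.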

Additional observations from a re-analysis of the deposited data

How the results depend on the processing

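The 22 calls at 480 µg/ml against control kept their direction in all 15 alternatives, and 9 were called in each of them: HSP90AA1, HSP90AB1, HSPD1, HSPA9, HSPH1, DNAJB2, DNAJB11, DNAJC30 and HSPA4L. None of the 10 calls at 240 µg/ml against control was kept in all 16, and none of them changed sign. With only the compared groups in the fit, calls were 6 higher and 18 lower at 240 µg/ml against control (2 and 8 in the fit of all groups), 4 and 5 at 480 µg/ml against control (9 and 13), and 6 and 15 for 240 against 24 µg/ml (1 and 7). Which upper dose had more calls against control thus depended on the fit. Without both 480 µg/ml libraries, calls were 6 and 18 at 240 µg/ml against control and 7 and 15 for 240 against 24 µg/ml. DESeq2 called 2 higher for 240 against 24 µg/ml, and limma 1 higher and 13 lower at 240 µg/ml against control. Libraries of the same replicate number showed little shared deviation (correlations of deviations -0.0797 to 0.0449 over 6 pairs of groups). The labels do not say whether replicate numbers pair cultures, and these correlations cannot decide it. The replicate block called 1 higher and 5 lower at 240 µg/ml against control and 1 lower for 240 against 24 µg/ml. Leaving out 1 library gave 0 to 6 higher and 0 to 18 lower at 240 µg/ml against control, 4 to 16 and 5 to 21 at 480 µg/ml against control, 0 to 7 and 0 to 15 for 240 against 24 µg/ml, and 0 to 8 and 0 to 3 for 480 against 240 µg/ml. The 240 µg/ml calls against control dropped to 0 and 0 without either control library and were 6 and 18 without either 480 µg/ml library. At 480 µg/ml they were 4 and 5 without control replicate 1 and 4 and 7 without replicate 2. Higher calls there were 16 without 480 µg/ml replicate 2, and lower calls 21 without replicate 1. At 24 µg/ml against control 0 members were called in every alternative. Without 480 µg/ml replicate 1 or 2 some signs changed: the log2 fold change at 480 µg/ml against control ranged from -0.350 to 0.530 for HSPA13, -0.0372 to 0.598 for PFDN5 and -0.0717 to 0.304 for GAK, and that at 480 against 240 µg/ml from -0.412 to 0.466 for HSPA13, -0.550 to 0.268 for HSPB1 and -0.0408 to 0.600 for DNAJC30. The cause was not tested. Of 116 named gene and comparison pairs called in no fit, 49 changed sign in at least 1 alternative. The share of all genes called in each alternative is not given here. The changes in member counts thus cannot be told apart from a change in calls over all genes. The 2 libraries per group limit the precision throughout.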
